A study of Mus musculus with 8 samples.

Results

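The Wnt ligands, their Frizzled receptors, the secreted inhibitors that hold the ligands back, the R-spondins and a few genes of the response were followed in skin of mice treated to lose Ncstn from keratinocytes. Members were taken by name from the deposited gene table: every symbol that begins with Wnt, Fzd, Sfrp, Dkk or Rspo followed directly by a digit, together with Wif1, Frzb, Axin2, Lef1, Tcf7, Nkd1 and Nkd2. This gave 49 of the 34745 genes: 19 Wnt ligands, 10 Frizzled receptors, 10 secreted inhibitors, 5 genes with an R-spondin name and 5 feedback genes and nuclear factors. Of these, 39 had enough counts to be tested.

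RNA was sequenced from whole skin lesions of 16-week-old mice, 4 libraries per group. The NcstnΔKC group was Ncstn flx/flx; Krt14 CreER+/- and received tamoxifen by oral gavage, 20 mg per kg per day over 5 days from the age of 8 weeks and then every 10 days. Nicastrin, the product of Ncstn, belongs to the γ-secretase complex, which also cuts Notch receptors, and the Krt14 promoter directs the inducible Cre to basal keratinocytes and the outer layers of the hair follicle, so other skin cells should keep the gene. The protocol gives the normal group the same floxed and Cre alleles with corn oil in place of tamoxifen, whereas its genotype label reads wildtype; which holds cannot be told from the labels. The labels do not say whether each library came from a separate animal, so the p-values measure the spread between these samples.

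Wnt proteins are secreted lipid-modified signals that bind a Frizzled receptor together with the co-receptor LRP5 or LRP6. In the canonical branch this stabilises β-catenin, which enters the nucleus and acts with factors of the TCF/LEF family, and targets such as Axin2 feed back to damp the signal. In skin the pathway is known for the formation of hair follicles, for the start of hair growth and for the upkeep of the basal epidermis. Secreted frizzled-related proteins and Wif1 bind Wnts outside the cell, most Dickkopf proteins block the co-receptors, and R-spondins keep receptors at the cell surface by acting on the ligases that remove them.

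Total counts ran from 5835422 to 8663753 in the normal libraries and from 11881506 to 12893174 in the NcstnΔKC libraries. Ncstn itself (chromosome 1, 172066013 to 172082795, mm10) measured 60.7, 61.9, 61.3 and 58.4 CPM in normal replicates 1 to 4 and 66.8, 50.2, 57.8 and 56.2 CPM in NcstnΔKC replicates 1 to 4, where CPM is counts per 1000000 of the scaled library size. Its log2 fold change was -0.07 ± 0.12 (SE; edgeR adjusted p = 0.663), so the loss of Ncstn is not seen in whole skin. Scaling by basal keratinocyte genes gave -0.74 (edgeR adjusted p = 0.0136), but that scale moved the median of all genes tested to -0.70. Every direction given here is therefore that of the libraries labelled NcstnΔKC against those labelled normal. Although all 8 mice were labelled male, Xist had 22304 to 37109 counts in replicates 3 and 4 of both groups and 4 to 9 counts in replicates 1 and 2. Genes on chromosome Y had 13 to 35 counts in replicates 3 and 4 and 904 to 4515 in replicates 1 and 2. Both measures go against the male label for replicates 3 and 4 of both groups. Skeletal muscle genes took 2.07% to 14.6% of the counts of a normal library and 0.474% to 2.75% of those of an NcstnΔKC library. In whole skin, fewer cells of a type and less RNA per cell cannot be told apart.

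More ligands rose than fell (5 and 1 of 13 tested), where 21.4% of all genes tested rose and 22.7% fell. More inhibitors (4 and 1 of 8) and more feedback genes and nuclear factors (4 and 0 of 5) fell than rose. Wnt10a, Wnt3a, Wnt16, Wnt4 and Wnt6 were higher in NcstnΔKC skin, with Fzd10 and Dkk3. Lower were Wnt10b, Fzd7, Fzd3, Dkk2, Sfrp4, Frzb, Wif1, Rspo1, Axin2, Lef1, Nkd1 and Tcf7. At an adjusted p under 0.05 (edgeR quasi-likelihood test with Benjamini-Hochberg adjustment over 15684 genes) 7 of the 39 tested members were higher, against 21.4% of all genes tested, and 12 were lower, against 22.7%. Together 19 of 39 passed, against a background of 44.1%, so the overall share of changed members is close to that of the whole table and is not a result about these genes. In 17 of 39 the libraries of the groups did not overlap, against 41.6% of all genes. The median log2 fold change was -0.39 over the 39 members and -0.02 over all genes tested.

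The split by direction depended on how libraries were scaled. With total counts as the scale it was 10 higher and 6 lower of 39, where 34.4% and 13.9% of all genes were called. With limma-trend on log2(FPKM + 1) it was 9 and 6, beside 34.1% and 13.5% of all genes. With 13 basal keratinocyte genes as the scale it was 4 and 19, beside 4.71% and 48.8% of all genes. The split of the members thus shifted in the same direction as that of the whole table. Those scales moved the median log2 fold change of all genes to 0.30, 0.20 and -0.70. All 19 called members kept their sign under each of the 24 other settings tried.

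**Figure D1:**
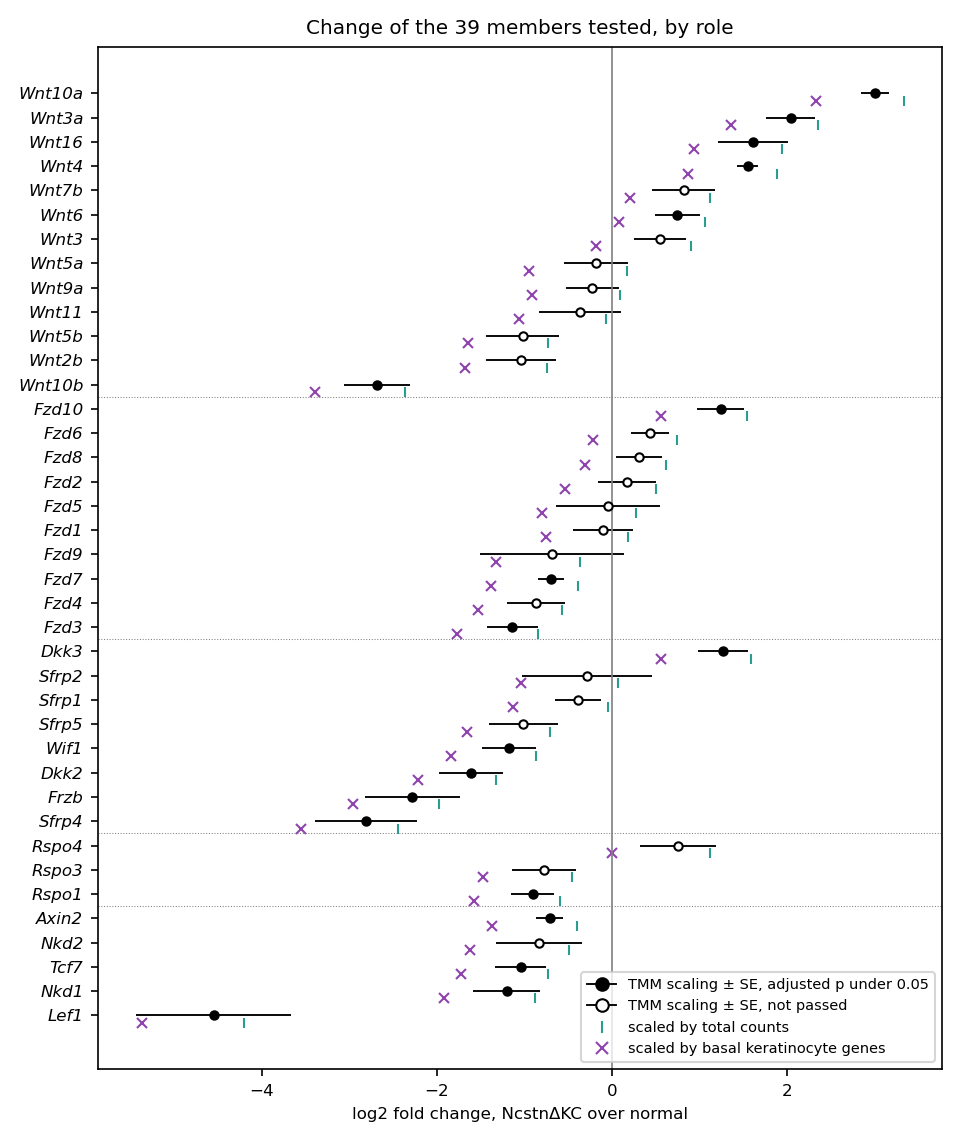
Log2 fold change (x axis, NcstnΔKC over normal) of each of the 39 tested members, grouped by role in the order ligands, receptors, inhibitors, R-spondins, feedback genes and nuclear factors. Circles with bars are edgeR values ± SE with TMM scaling (filled: adjusted p under 0.05), ticks are values with total-count scaling and crosses those with basal keratinocyte scaling. Wnt10a (3.01) and Lef1 (-4.55) lie at the ends, and a change of scale shifts all members together.

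Among the Wnt ligands, 13 of 19 were tested, of which 5 rose, 1 fell and 7 did not pass. Of all genes tested, 21.4% rose and 22.7% fell. With basal keratinocyte scaling 4 ligands rose and 3 fell, beside 4.71% and 48.8% of all genes. The median log2 fold change of the ligands was 0.55, and -0.18 with that scaling. Wnt10a, a ligand needed for teeth, hair and other skin appendages (chromosome 1, 74791516 to 74804179), measured 10.9, 8.67, 8.75 and 7.17 CPM in normal replicates 1 to 4 and 64.4, 71.1, 79.0 and 71.7 CPM in NcstnΔKC replicates 1 to 4. The mean rose from 8.88 ± 1.55 (SD, n = 4) to 71.6 ± 5.95 CPM (SD, n = 4), a fitted 8.06-fold rise (log2 fold change 3.01 ± 0.16 SE; edgeR adjusted p = 3.89e-05). The groups were far apart, with the lowest NcstnΔKC library well above the highest normal one. Its log2 fold change ran from 2.34 to 3.34 over the 24 other settings.

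Wnt4, a ligand made by epidermal keratinocytes (chromosome 4, 137277489 to 137299726), measured 34.8, 39.9, 35.0 and 34.4 CPM in normal skin and 113, 116, 94.8 and 99.4 CPM in NcstnΔKC skin. It rose from 36.0 ± 2.61 to 106 ± 10.5 CPM (SD, n = 4 each), and the fitted log2 fold change was 1.56 ± 0.12 SE (edgeR adjusted p = 9.12e-05). Normal replicate 2 stood a little above the other 3 normal libraries, and every NcstnΔKC library was far above it. Wnt3a, a classical canonical ligand (chromosome 11, 59248033 to 59290752), measured 3.04, 3.63, 1.55 and 1.82 CPM in normal skin and 11.1, 10.4, 10.4 and 9.07 CPM in NcstnΔKC skin. It rose by 2.04 ± 0.28 SE on the log2 scale (edgeR adjusted p = 0.000812), again without overlap.

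Wnt16 (chromosome 6, 22288227 to 22298522), a ligand also made in keratinocytes, varied more: 4.25, 2.02, 2.96 and 6.90 CPM in normal skin against 6.96, 12.8, 13.2 and 17.3 CPM in NcstnΔKC skin. It rose by 1.62 ± 0.40 SE on the log2 scale (edgeR adjusted p = 0.0106), and the highest normal library nearly reached the lowest NcstnΔKC one. Wnt6, the neighbour of Wnt10a on the same strand, 6193 bases upstream (chromosome 1, 74771892 to 74785322), measured 1.37, 1.21, 1.13 and 1.69 CPM in normal skin and 2.27, 2.53, 2.35 and 2.01 CPM in NcstnΔKC skin. Its log2 fold change of 0.75 ± 0.26 SE (edgeR adjusted p = 0.0409) was smaller than that of Wnt10a, was 0.08 with basal keratinocyte scaling (adjusted p = 0.838), and lost its call in 6 of the 8 fits that left out a library. Wnt3a also has a ligand gene beside it, Wnt9a, 16175 bases away, which did not pass (-0.22 ± 0.30 SE, edgeR adjusted p = 0.579).

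Wnt10b, a canonical ligand linked to the growth phase of the hair cycle (chromosome 15, 98771753 to 98778150), was the 1 ligand that fell. It measured 2.43, 4.64, 2.40 and 4.30 CPM in normal skin and 0.671, 0.683, 0.415 and 0.336 CPM in NcstnΔKC skin. Levels went from 3.44 ± 1.19 to 0.526 ± 0.177 CPM (SD, n = 4 each), a change on the log2 scale of -2.68 ± 0.38 SE (edgeR adjusted p = 0.000878). Wnt10a and Wnt10b, close relatives by sequence, thus moved in opposite directions, under all 24 other settings.

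**Figure D2:**
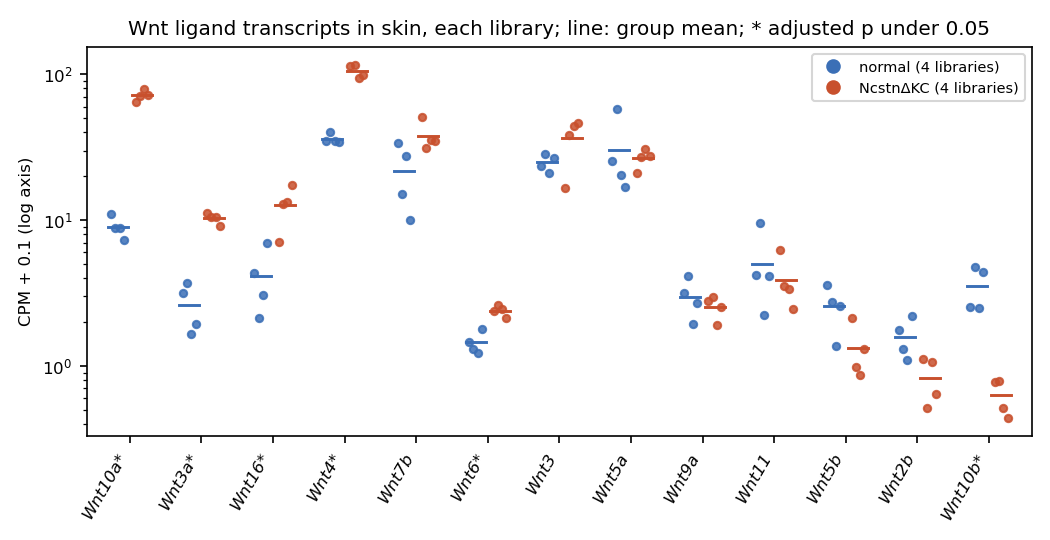
Level of each tested Wnt ligand in CPM with 0.1 added (y axis, log scale) in the 4 normal and 4 NcstnΔKC libraries; points are libraries and lines the group means. Wnt10a, Wnt4 and Wnt3a separate without overlap upward and Wnt10b downward, while Wnt5a overlaps.

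Other ligands at 5 CPM or more did not pass. Wnt3, a canonical ligand, measured 23.4, 28.2, 21.0 and 26.7 CPM in normal skin and 16.5, 38.4, 44.2 and 46.1 CPM in NcstnΔKC skin (0.55 ± 0.29 SE, edgeR adjusted p = 0.157). NcstnΔKC replicate 1 lay below every normal library and the other 3 above all of them; without that library Wnt3 passed (0.79, adjusted p = 0.00266). Wnt7b, another epidermal ligand, measured 33.6, 15.1, 27.2 and 9.90 CPM against 50.6, 31, 35.1 and 35.1 CPM (0.82 ± 0.36 SE, edgeR adjusted p = 0.0899). It overlapped through normal replicate 1, without which it passed (1.19, adjusted p = 0.0264). Wnt5a, the main ligand of the β-catenin-independent branch, measured 25.4, 58.1, 20.2 and 16.8 CPM against 21.0, 26.8, 30.7 and 27.6 CPM (-0.17 ± 0.37 SE, edgeR adjusted p = 0.721; 95% interval -1.0 to 0.65). Its level in normal replicate 2 was the highest of all 8, and without that library the value was 0.41. Below 5 CPM, Wnt2b (-1.04), Wnt5b (-1.02), Wnt9a (-0.22) and Wnt11 (-0.36) did not pass; without NcstnΔKC replicate 1 Wnt5b did (-1.35, adjusted p = 0.0206).

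The 6 untested ligands had few reads. Summed over the 4 libraries of each group, counts were 21 in normal and 10 in NcstnΔKC skin for Wnt2, 11 and 9 for Wnt7a, 5 and 3 for Wnt8a, 4 and 25 for Wnt9b, and 2 and 0 for Wnt1. Wnt8b had 0 counts in both groups, which allows a level of up to 0.101 and 0.0599 counts per 1000000 of the summed totals (3 counts; counting error alone).

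Levels of different genes can be set side by side only per length, which the authors' FPKM values do. On that scale the 19 ligands summed to 34.0, 31.5, 24.3 and 27.1 FPKM in normal replicates 1 to 4 and to 76.7, 96.5, 95.3 and 95.4 FPKM in NcstnΔKC replicates 1 to 4. FPKM is relative to each library's total, to which muscle transcripts contributed as given above; their part in this sum was not tested. The share of each ligand within the ligand sum does not depend on library scale. Wnt10a went from 9.52% ± 1.38 to 30.9% ± 1.64 of ligand FPKM (SD, n = 4 each) and stood level with Wnt4, which made up 26.3% ± 1.97 in normal and 31.1% ± 3.86 in NcstnΔKC skin. Wnt3 went from 24.7% ± 3.25 to 14.3% ± 5.05, Wnt7b from 14.8% ± 7.48 to 10.6% ± 2.94, and Wnt10b from 3.42% ± 1.16 to 0.212% ± 0.0763. In normal skin Wnt4 and Wnt3 led the ligands, whereas in NcstnΔKC skin Wnt4 and Wnt10a did, and within each of these pairs the means differed by less than the larger SD. The shares of Wnt10a and of Wnt10b did not overlap between groups. Nor did those of Wnt3a, which was higher, and of Wnt2b, Wnt3, Wnt5a, Wnt5b, Wnt6 and Wnt9a, which were lower. Wnt6, called higher in CPM, went from 1.39% ± 0.354 to 0.941% ± 0.0896 of ligand FPKM.

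**Figure D3:**
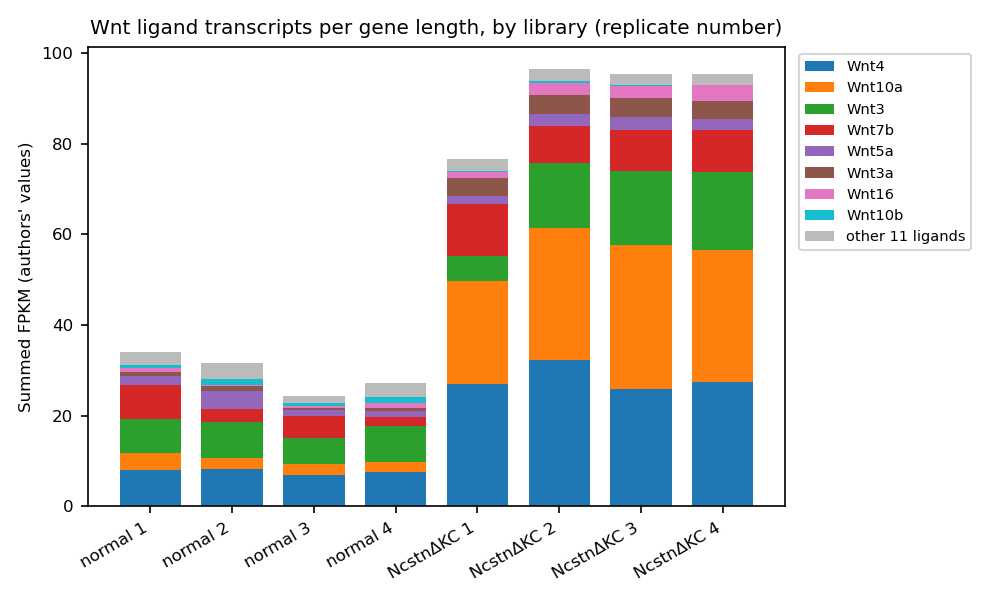
Summed FPKM of the 19 Wnt ligands (y axis, the authors' values) in each of the 8 libraries, stacked by ligand, with the other 11 ligands pooled in grey. The sums lie between 24.3 and 34.0 in normal and between 76.7 and 96.5 in NcstnΔKC libraries, and most of the added height is Wnt4 and Wnt10a.

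Basal keratinocyte genes took a larger share of counts in NcstnΔKC libraries. The list of 13 took 0.705% to 1.13% of counts in normal and 1.35% to 2.03% in NcstnΔKC libraries (exact two-sided permutation test over 70 arrangements, p = 0.0286, the smallest possible, adjusted p = 0.0667 over 14 lists). Of its members 11 rose and 1 fell, beside 21.4% and 22.7% of all genes tested, and none was at 0. The part of these genes in the changes of the ligands was not tested. With these genes as the scale, Wnt10a (2.34), Wnt3a (1.37), Wnt16 (0.94) and Wnt4 (0.87) still passed (edgeR adjusted p of 3.6e-05, 0.00705, 0.0457 and 0.00543).

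For 34 of the 49 members a promoter, the 250 bases before the gene start, was given by RefSeq (GRCm38.p6). Of the called members 15 had an entry, and Wnt10a, Fzd3, Dkk3 and Sfrp4 had none. The 100 bases directly before the start of 3 ligands that rose, the ligand that fell and the feedback gene Axin2 are shown with each CG dinucleotide in capitals, since these genes moved in opposite directions and differ in CG content. The positions are chr11:59290752-59290851 (minus strand) for Wnt3a, chr1:74771792-74771891 (plus) for Wnt6, chr6:22288127-22288226 (plus) for Wnt16, chr15:98778151-98778250 (minus) for Wnt10b and chr11:108920249-108920348 (plus) for Axin2.
Wnt3a: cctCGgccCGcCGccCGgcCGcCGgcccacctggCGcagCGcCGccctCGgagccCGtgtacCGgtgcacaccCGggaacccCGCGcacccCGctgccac
Wnt6: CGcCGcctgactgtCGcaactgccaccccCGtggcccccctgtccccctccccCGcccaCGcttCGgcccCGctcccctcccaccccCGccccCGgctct
Wnt16: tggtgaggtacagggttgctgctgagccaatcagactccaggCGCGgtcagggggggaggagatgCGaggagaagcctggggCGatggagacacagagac
Wnt10b: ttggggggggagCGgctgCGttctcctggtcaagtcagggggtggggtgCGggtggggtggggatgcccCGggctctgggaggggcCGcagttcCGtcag
Axin2: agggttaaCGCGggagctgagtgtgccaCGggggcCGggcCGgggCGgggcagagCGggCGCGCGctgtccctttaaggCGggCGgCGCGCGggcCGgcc

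These windows hold 16, 10, 4, 6 and 16 CG dinucleotides in the order shown. Wnt16, which rose, thus has no more of them than Wnt10b, which fell. The window of Wnt4, which rose and is not shown, holds 20. In the full 250 bases, the 5 promoters of members called higher had a median of 79.6% GC and 37 CG dinucleotides. The 10 of members called lower had 65.8% and 16.5. This difference was not tested. Over 250 bases the median GC content was 68.6% in the 34 member promoters and 52.4% in all 32851 promoters of the table, with a median of 22 and 6 CG dinucleotides. Motifs of 3 factor families were searched on both strands. Some members have more than 1 promoter, 41 in all for the 34 members. CTTTGAT, bound by TCF/LEF factors, was in 2 of the 41 member promoters (Wnt5b and Wnt11) and in 3.21% of all promoters. TGGGAA, bound by RBPJ, the nuclear partner of Notch, was in 5 of the 41 (Wnt3, Wnt5b, Wnt9a, Frzb and Nkd2) and in 21.6% of all. TGANTCA, bound by AP-1, was in 1 of the 41 (Wnt5b) and in 6.75% of all. Among the 15 called members with a promoter, Frzb alone held any of these letters.

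All 10 Frizzled receptors were tested. Of them 1 rose, 2 fell and 7 did not pass, where 21.4% of all genes tested rose and 22.7% fell. The median log2 fold change was -0.07 (0.23 with total counts and -0.77 with basal keratinocyte scaling). Fzd10 (chromosome 5, 128600844 to 128604093) measured 22.0, 33.9, 14.5 and 25.5 CPM in normal skin and 76.4, 52.4, 50.5 and 47.4 CPM in NcstnΔKC skin. It rose by 1.24 ± 0.26 SE on the log2 scale (edgeR adjusted p = 0.00542) without overlap, but with basal keratinocyte scaling it did not pass (0.56, adjusted p = 0.189). Fzd7, a receptor for canonical ligands (chromosome 1, 59482424 to 59486955), measured 142, 121, 97.6 and 99.3 CPM in normal skin and 70.4, 75, 74.9 and 62.9 CPM in NcstnΔKC skin. It fell by 0.70 ± 0.15 SE on the log2 scale (edgeR adjusted p = 0.00544), also without overlap, and did not pass with total-count scaling (-0.38, adjusted p = 0.11).

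Fzd3, a receptor of the planar polarity branch (chromosome 14, 65201026 to 65262463), measured 27.5, 26.2, 15.5 and 18.8 CPM in normal skin and 15.8, 7.38, 8.92 and 7.99 CPM in NcstnΔKC skin. It fell by 1.13 ± 0.29 SE on the log2 scale (edgeR adjusted p = 0.0134), with NcstnΔKC replicate 1 inside the normal range. Fzd6, its partner in orienting hairs, measured 77.9, 71.6, 65.8 and 59.9 CPM against 133, 99.2, 68.6 and 72.9 CPM and did not pass (0.44 ± 0.21 SE, edgeR adjusted p = 0.123). Its 2 highest NcstnΔKC libraries were above all normal ones and the other 2 within their range.

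Fzd4, the receptor for norrin in blood vessels as well as for Wnts, measured 46.6, 81.6, 52.5 and 66.1 CPM in normal skin and 55.2, 17.3, 30.4 and 32.2 CPM in NcstnΔKC skin. NcstnΔKC replicate 1 alone reached the normal range; over all libraries Fzd4 did not pass (-0.87 ± 0.33 SE, edgeR adjusted p = 0.0585) and without that library it did (-1.21, adjusted p = 0.00748). Fzd1 measured 63.3, 84.9, 38.7 and 46.1 CPM against 92.1, 35.2, 46.5 and 43.1 CPM (-0.10 ± 0.34 SE, edgeR adjusted p = 0.827). Its groups overlapped throughout. Fzd2 measured 17.6, 19.4, 7.48 and 14.1 CPM against 10.2, 13.5, 20.5 and 21.6 CPM (0.17 ± 0.33 SE, edgeR adjusted p = 0.694). Fzd5 measured 17.8, 50.6, 4.94 and 11.1 CPM against 25.8, 12.5, 21.3 and 21.6 CPM (-0.04 ± 0.60 SE, edgeR adjusted p = 0.958). Normal replicate 2 held the highest Fzd5 level, and 17.8% of the exon bases of this gene overlap a gene on the other strand that had 0 and 5 counts in the groups. Fzd8 measured 8.66, 3.83, 7.34 and 6.64 CPM against 10.5, 7.04, 7.74 and 7.79 CPM (0.31 ± 0.26 SE, edgeR adjusted p = 0.365). Fzd9, at most 2.54 CPM in a library, did not pass either (-0.68 ± 0.82 SE). The intervals of these values are wide, up to -2.54 to 1.17 for Fzd9, so a change of some size in them could have been missed.

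Per length, the receptor sum was 83.2 ± 17.6 FPKM in normal and 98.0 ± 15.2 FPKM in NcstnΔKC libraries (SD, n = 4 each), a difference smaller than either SD. This holds for the FPKM scale only, on which the median log2 fold change of all genes tested was 0.20. The make-up changed: Fzd10 went from 7.80% ± 1.63 to 19.6% ± 0.728 of receptor FPKM, and Fzd7 from 27.4% ± 3.57 to 18.2% ± 3.80. Neither share overlapped between groups, nor did those of Fzd3 and Fzd4, which were lower. Fzd7 had the largest mean share in normal skin, and Fzd6 (24.7% ± 4.27) had it in NcstnΔKC skin, followed by Fzd10 and Fzd7, which differed by less than the SD of Fzd7.

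**Figure D4:**
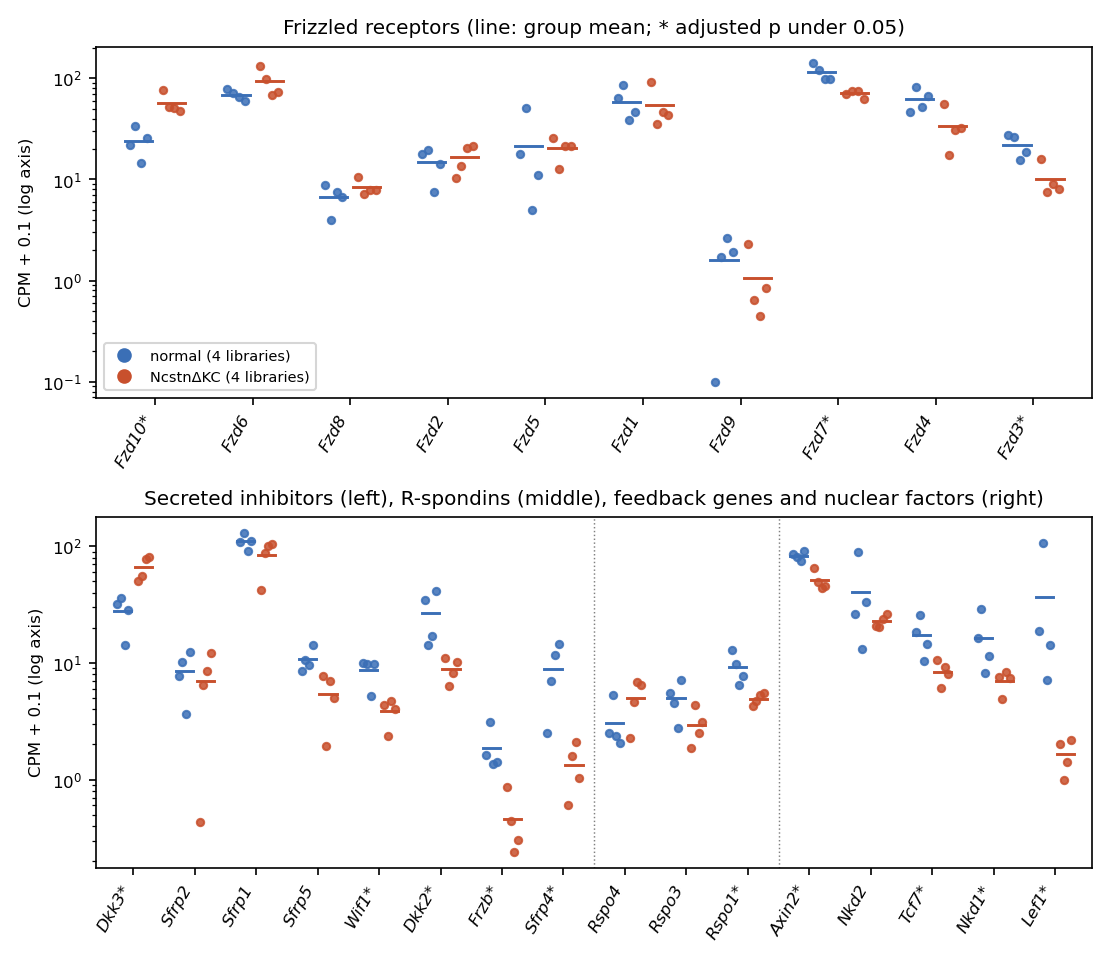
Level in CPM with 0.1 added (y axis, log scale) of the tested Frizzled receptors, and of the tested secreted inhibitors, R-spondins and feedback genes and nuclear factors, in the 4 normal and 4 NcstnΔKC libraries; points are libraries and lines the group means. Fzd10 and Dkk3 are higher without overlap, Sfrp4, Frzb and Lef1 lower without overlap, and Fzd3, Nkd1 and Tcf7 lower with overlap.

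Of the 10 secreted inhibitors, 8 were tested. Among these 4 fell, 1 rose and 3 did not pass, where 22.7% of all genes tested fell and 21.4% rose. The median log2 fold change was -1.09. Sfrp4, a decoy with a Frizzled-like Wnt-binding domain (chromosome 13, 19623175 to 19632821), measured 2.43, 6.85, 11.6 and 14.3 CPM in normal skin and 0.503, 1.5, 2.0 and 0.940 CPM in NcstnΔKC skin. It fell by 2.81 ± 0.58 SE on the log2 scale (edgeR adjusted p = 0.00499). Normal replicates spread widely, yet all lay above the NcstnΔKC ones. Frzb, another decoy of the same family (chromosome 2, 80411970 to 80447625), was low: 1.52, 3.02, 1.27 and 1.30 CPM against 0.755, 0.342, 0.138 and 0.201 CPM, a log2 fold change of -2.28 ± 0.54 SE (edgeR adjusted p = 0.0091).

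Dkk2, a Dickkopf protein that binds the LRP co-receptors (chromosome 3, 132085292 to 132180304), measured 34.6, 14.1, 16.8 and 41.7 CPM in normal skin and 10.9, 6.29, 8.16 and 10.0 CPM in NcstnΔKC skin. It fell by 1.60 ± 0.37 SE on the log2 scale (edgeR adjusted p = 0.00766) without overlap. Wif1, which binds Wnts directly (chromosome 10, 121033960 to 121100650), measured 9.87, 9.68, 5.08 and 9.64 CPM against 4.28, 2.25, 4.63 and 3.96 CPM. It fell by 1.18 ± 0.31 SE on the log2 scale (edgeR adjusted p = 0.0135), normal replicate 3 being just above the NcstnΔKC range, and it did not pass with total-count scaling (-0.87).

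Dkk3, a divergent Dickkopf protein that is not a typical co-receptor blocker (chromosome 7, 112116019 to 112159057), went the other way. It measured 31.7, 36.1, 14.3 and 28.1 CPM in normal skin and 50.1, 55.7, 78.2 and 81.4 CPM in NcstnΔKC skin, a log2 fold change of 1.27 ± 0.29 SE (edgeR adjusted p = 0.00736). The groups did not overlap, but with basal keratinocyte scaling it did not pass (0.56, adjusted p = 0.143). Sfrp1, the inhibitor with the most transcript per length in normal skin, measured 109, 129, 90.8 and 112 CPM against 42.4, 88.4, 101 and 104 CPM and did not pass (-0.39 ± 0.26 SE, edgeR adjusted p = 0.254). The low NcstnΔKC value was that of replicate 1. Sfrp2 measured 7.59, 10.1, 3.53 and 12.4 CPM against 0.336, 6.42, 8.50 and 12.2 CPM (-0.28 ± 0.74 SE, edgeR adjusted p = 0.776). Here too NcstnΔKC replicate 1 lay far below the rest, and 16.1% of its exon bases overlap a gene on the other strand with 7 and 12 counts in the groups. Sfrp5 measured 8.35, 10.5, 9.46 and 14.2 CPM against 7.55, 1.84, 6.84 and 4.90 CPM; the groups did not overlap, and it did not pass (-1.01 ± 0.40 SE, edgeR adjusted p = 0.065). Without NcstnΔKC replicate 1 it did (-1.22, adjusted p = 0.0376). Dkk1 had 3 counts in normal and 1 in NcstnΔKC skin, and Dkk4 had 2 and 0.

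Per length, the inhibitor sum was 50.6 ± 10.8 FPKM in normal and 54.3 ± 16.2 FPKM in NcstnΔKC libraries (SD, n = 4 each), a difference within the spread. That sum includes Dkk3, and it holds for the FPKM scale only, on which the median log2 fold change of all genes tested was 0.20. Dkk3 went from 14.3% ± 3.90 to 41.3% ± 2.79 of inhibitor FPKM, level with Sfrp1 (44.9% ± 4.90 and 39.2% ± 7.27). Sfrp4 went from 9.03% ± 5.61 to 1.44% ± 0.635 and Dkk2 from 12.6% ± 5.20 to 5.31% ± 2.42.

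Fibroblast genes, which mark cells that make several of these inhibitors, overlapped between groups: the list of 10 made up 3.29%, 2.94%, 0.388% and 0.502% of the counts of normal replicates 1 to 4 and 0.448% to 1.46% in NcstnΔKC libraries (exact two-sided permutation test, p = 0.429). Of its members 3 fell and 0 rose, beside 22.7% and 21.4% of all genes tested, and none was at 0. The spread of this share among the normal libraries lay mostly in the collagen genes Col1a1, Col1a2 and Col3a1. Adipocyte genes took 0.0713% to 0.167% in normal and 0.0136% to 0.0784% in NcstnΔKC libraries. Of 10 adipocyte genes 7 were lower, beside 22.7% of all genes tested, and none was at 0. The part of either list in the changes of the inhibitors was not tested.

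Of the R-spondins, 3 were tested. Rspo1 (chromosome 4, 124986430 to 125009099) measured 12.8, 9.68, 6.35 and 7.56 CPM in normal skin and 4.20, 4.58, 5.18 and 5.37 CPM in NcstnΔKC skin. It fell by 0.90 ± 0.25 SE on the log2 scale (edgeR adjusted p = 0.0172) without overlap; it did not pass without normal replicate 1 (-0.62, adjusted p = 0.0683), without normal replicate 2 (-0.82, adjusted p = 0.0507) or with total-count scaling (-0.59). Rspo3 (-0.77 ± 0.37 SE, edgeR adjusted p = 0.117) and Rspo4 (0.76 ± 0.44 SE, edgeR adjusted p = 0.186), both under 5 CPM, did not pass; without NcstnΔKC replicate 1 Rspo4 did (1.0 on the log2 scale, adjusted p = 0.0454). Rspo2, a growth-phase R-spondin of the follicle, was too low to test, with 36 counts in normal and 9 in NcstnΔKC libraries, and 22 of the 36 came from normal replicate 2. With no filter it was called lower (-3.03, adjusted p = 0.043), as it was by DESeq2's Wald test (-3.27, adjusted p = 0.011). Rspo4os, an antisense gene inside Rspo4, had 0 and 3 counts.

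Of the 5 feedback genes and nuclear factors 4 fell and none rose, where 22.7% of all genes tested fell; the median log2 fold change was -1.04. With total counts as the scale 1 of the 5 was called lower, beside 13.9% of all genes. With limma-trend on FPKM it was also 1, beside 13.5%, and in libraries with Xist 2, beside 26.4%. Axin2, a negative feedback target often used as a readout of canonical signalling (chromosome 11, 108920349 to 108950783), measured 86.6, 80.4, 74.1 and 91.3 CPM in normal skin and 65.5, 49.0, 43.4 and 45.7 CPM in NcstnΔKC skin. It fell from 83.1 ± 7.47 to 50.9 ± 10.0 CPM (SD, n = 4 each), a change on the log2 scale of -0.71 ± 0.15 SE (edgeR adjusted p = 0.0063). All NcstnΔKC libraries lay below all normal ones, with replicate 1 the closest. With total-count scaling Axin2 did not pass (-0.40, adjusted p = 0.0572), nor with limma-trend on FPKM (-0.35), and with basal keratinocyte scaling it was -1.36 (adjusted p = 0.00102). The log2 fold change of Axin2 was negative under every setting tried, and those of Wnt10a, Wnt4 and Wnt3a were positive under all of them. In libraries without Xist none of these genes passed (edgeR adjusted p of 0.262, 0.0677, 0.0788 and 0.106 in that order).

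Lef1, the nuclear partner of β-catenin most tied to the hair follicle (chromosome 3, 131110471 to 131224356), measured 18.8, 107, 7.06 and 14.2 CPM in normal skin and 1.93, 0.888, 1.31 and 2.08 CPM in NcstnΔKC skin. It fell by 4.55 ± 0.89 SE on the log2 scale (edgeR adjusted p = 0.00383). Normal replicate 2 stood far above the other 3; without it the log2 fold change was -3.05 (adjusted p = 0.00147). A gene on the other strand that shares 13.7% of its exon bases had 2 and 0 counts in the groups. Tcf7, a related factor (chromosome 11, 52252371 to 52283014), measured 18.4, 25.6, 10.3 and 14.5 CPM against 10.4, 5.94, 9.06 and 7.86 CPM, with normal replicate 3 and NcstnΔKC replicate 1 meeting. It fell by 1.04 ± 0.30 SE on the log2 scale (edgeR adjusted p = 0.0194) and did not pass without normal replicate 1 (-0.93, adjusted p = 0.0522), normal replicate 2 (-0.74, adjusted p = 0.0585) or NcstnΔKC replicate 2 (-0.90, adjusted p = 0.0514), or with total-count scaling (-0.73).

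The Naked genes encode feedback inhibitors that act on Dishevelled. Nkd1 (chromosome 8, 88521344 to 88594887) measured 16.2, 28.8, 8.05 and 11.5 CPM in normal skin and 7.47, 4.78, 8.23 and 7.39 CPM in NcstnΔKC skin. It fell by 1.20 ± 0.38 SE on the log2 scale (edgeR adjusted p = 0.0296), with overlap; without normal replicate 2 it was -0.72 (adjusted p = 0.0847), and it lost its call in 5 of the 8 fits that left out a library. Nkd2 measured 26.3, 89.9, 13.0 and 33.4 CPM against 20.8, 20.3, 23.6 and 26.1 CPM and did not pass (-0.83 ± 0.49 SE, edgeR adjusted p = 0.197). As for Lef1, Nkd1, Tcf7, Wnt5a and Fzd5, its highest value was in normal replicate 2.

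Hair genes differed between the same libraries. The 17 hair matrix and shaft genes made up 0.0129%, 3.51%, 0.00642% and 0.0470% of the counts of normal replicates 1 to 4 and 0.00294% to 0.00390% in the NcstnΔKC libraries (exact two-sided permutation test over 70 arrangements, p = 0.0286, adjusted p = 0.0667 over 14 lists). Of 6 tested, 5 fell, and Krt33b, Krt34, Krt35, Krt81 and Krt25 were at 0 in all NcstnΔKC libraries. In normal replicates 1 to 4, Krt33b had 1, 1330, 0 and 4 counts and Krt34 had 2, 2103, 0 and 16. Nearly all normal counts of both genes thus came from replicate 2. The 10 hair follicle stem cell genes took 0.167% to 0.303% in normal and 0.0640% to 0.0923% in NcstnΔKC libraries; 7 fell, 1 rose and none was at 0. The 14 dermal papilla genes took 0.0158% to 0.0265% and 0.0203% to 0.0333% (exact two-sided permutation test, p = 0.2). Of 11 tested 6 fell and 1 rose, and none was at 0. Beside the counts of these hair lists, 22.7% of all genes tested fell and 21.4% rose. Without normal replicate 2 and NcstnΔKC replicate 1 together, 8 members rose and 14 fell (25.2% and 26.2% of all genes did so in that fit), and Lef1 still fell (-3.21, adjusted p = 0.00144).

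T cells also make Lef1 and Tcf7. Of the 12 T cell genes 7 rose and 0 fell, beside 21.4% and 22.7% of all genes tested, and none was at 0. The list took 0.00207% to 0.00647% of counts in normal and 0.00747% to 0.0200% in NcstnΔKC libraries (exact two-sided permutation test, p = 0.0286, adjusted p = 0.0667 over 14 lists). The part of T cells in the values of Lef1 and Tcf7 was not tested.

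**Figure D5:**
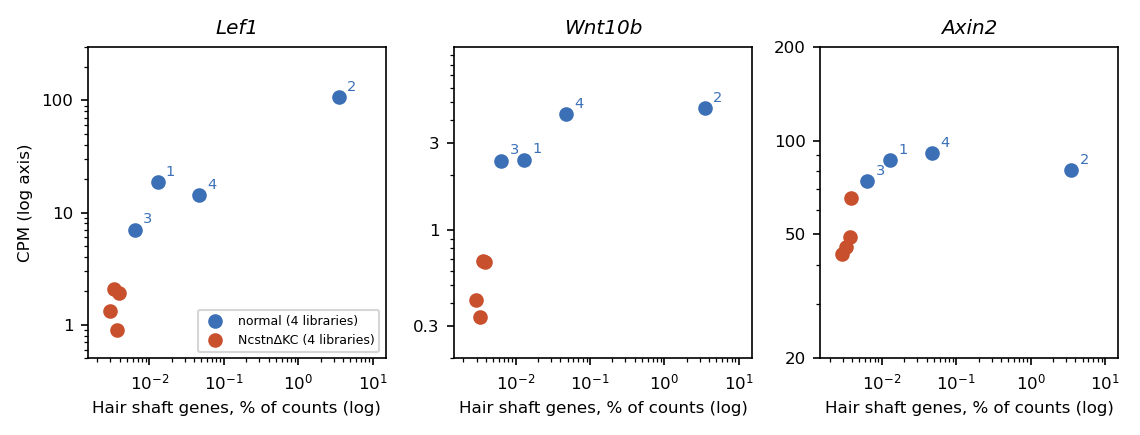
CPM (y axis, log scale) of Lef1, Wnt10b and Axin2 against the percent of counts in 17 hair matrix and shaft genes (x axis, log scale) in the 8 libraries; numbers are normal replicates. Normal replicate 2 (3.51% hair genes) has the highest Lef1 and Wnt10b but not the highest Axin2, and the other 3 normal libraries still lie above all NcstnΔKC libraries.

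The rest of the pathway was read from 7 lists holding 104 other genes, of which 98 were tested; 22 rose and 23 fell, against 21.4% and 22.7% of all genes, with a median log2 fold change of -0.09. Ahead of the ligands in the route of secretion, Porcn, the enzyme that attaches the lipid to Wnts, measured 7.14, 9.48, 4.66 and 4.43 CPM in normal skin and 50.3, 88.1, 55.2 and 68.8 CPM in NcstnΔKC skin. It rose by 3.37 ± 0.30 SE on the log2 scale (edgeR adjusted p = 1.30e-04), without overlap, and by 2.64 with basal keratinocyte scaling. Wls, which carries lipid-modified Wnts to the cell surface, rose from 97.1 ± 9.19 to 148 ± 13.3 CPM (SD, n = 4 each; 0.60 ± 0.12 SE, edgeR adjusted p = 0.00386), but was -0.10 with basal keratinocyte scaling. Trabd2b, a protease that inactivates Wnts, did not pass (0.49 ± 0.19 SE, edgeR adjusted p = 0.0562). Notum, which removes the lipid, was too low to test. It averaged 1.88 ± 0.796 CPM in normal skin against 0.261 ± 0.197 CPM in NcstnΔKC skin (SD, n = 4 each), lower without overlap. Thus 2 of the 3 tested secretion genes rose, beside 21.4% of all genes tested, and the untested Notum lay lower.

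Of 12 co-receptors and alternative receptors, 2 rose and 2 fell, beside 21.4% and 22.7% of all genes tested. Ptk7, a pseudokinase of the polarity branch, went from 68.6 ± 15 to 166 ± 16.0 CPM (1.27 ± 0.18 SE, edgeR adjusted p = 0.000785). Gpc4, a cell-surface proteoglycan, went from 61.2 ± 4.55 to 124 ± 10.6 CPM (1.02 ± 0.11 SE, edgeR adjusted p = 0.000309). Lgr5, an R-spondin receptor that is itself on the list of hair follicle stem cell genes, fell from 37.4 ± 12.0 to 12.9 ± 2.50 CPM (-1.54 ± 0.26 SE, edgeR adjusted p = 0.00188). Groups of these 3 genes did not overlap, and Gpc4 did not pass with basal keratinocyte scaling (0.34).

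Of 11 tested genes for receptor turnover and other extracellular modulators, 2 rose and 2 fell, beside 21.4% and 22.7% of all genes tested. Sostdc1, a secreted antagonist of Wnt and BMP signals, went from 42.2 ± 14.6 to 113 ± 52.9 CPM (1.43 ± 0.37 SE, edgeR adjusted p = 0.0141), with overlap. Apcdd1, a membrane inhibitor of Wnt signalling, fell from 174 ± 43.5 to 75.2 ± 17 CPM (-1.21 ± 0.22 SE, edgeR adjusted p = 0.00258). Serpinf1, a secreted protein also known for blocking blood vessel growth, fell from 166 ± 53.6 to 39 ± 11.4 CPM (-2.09 ± 0.30 SE, edgeR adjusted p = 0.000996). Apcdd1 and Serpinf1 were lower without overlap.

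Of 25 tested cytoplasmic transducers, 8 rose and 5 fell, beside 21.4% and 22.7% of all genes tested. The lowest p-values were those of Fbxw11, a ubiquitin ligase subunit that recognises β-catenin (0.96 ± 0.17 SE, edgeR adjusted p = 0.00276), Tnks2, which marks Axin for breakdown (0.61 ± 0.12 SE, edgeR adjusted p = 0.00382), and Apc2, a homologue of the scaffold Apc (-2.36 ± 0.47 SE, edgeR adjusted p = 0.00429). Neither Fbxw11 (0.30) nor Tnks2 (-0.07) passed with basal keratinocyte scaling.

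Of 16 nuclear partners and repressors, 4 rose and 7 fell, beside 21.4% and 22.7% of all genes tested. Tcf7l1, the TCF that keeps follicle stem cell genes in their state, fell from 25.7 ± 6.61 to 5.85 ± 0.522 CPM (-2.13 ± 0.21 SE, edgeR adjusted p = 1.80e-04). Pygo1 and Pygo2, which bridge β-catenin to chromatin, moved apart: Pygo1 fell from 31.4 ± 5.08 to 6.66 ± 2.0 CPM (-2.24 ± 0.23 SE, edgeR adjusted p = 0.000232). Pygo2 rose from 6.78 ± 1.54 to 21.1 ± 4.15 CPM (1.64 ± 0.23 SE, edgeR adjusted p = 0.000854). None of the 3 overlapped between groups.

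Of all genes tested 21.4% rose and 22.7% fell. Of 10 other known target genes tested, 2 rose and none fell. These were Cd44, an adhesion receptor (0.82 ± 0.21 SE, edgeR adjusted p = 0.0121), and Ctla4, a T cell inhibitory receptor that rose as did 7 of the 12 T cell genes (1.46 ± 0.39 SE, edgeR adjusted p = 0.0155). Fosl1, an AP-1 subunit, did not pass (1.71 ± 0.64 SE, edgeR adjusted p = 0.0552). Sp5, Edar and Mmp7 were too low to test. Sp5 averaged 0.133 ± 0.190 CPM in normal and 0.598 ± 0.120 CPM in NcstnΔKC skin, higher without overlap. Edar averaged 2.39 ± 1.23 and 0.379 ± 0.147 CPM (SD, n = 4 each), lower without overlap. Mmp7 had 0 counts in both groups. In the planar polarity and calcium branch 2 of 21 rose and 7 fell, beside 21.4% and 22.7% of all genes tested. Camk2a, a calcium-dependent kinase also abundant in muscle and nerve, fell with the muscle list (-3.06 ± 0.50 SE, edgeR adjusted p = 0.00172). All 12 genes of that list were lower, beside 22.7% of all genes tested, and none was at 0. The part of the muscle list in the Camk2a result was not tested. Nfatc2, a calcium-regulated transcription factor, fell by 1.12 ± 0.20 SE (edgeR adjusted p = 0.0026), and Plcb1, a phospholipase upstream of calcium release, fell by 1.16 ± 0.21 SE on the log2 scale (edgeR adjusted p = 0.00282).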

How the data were processed

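RNA from whole mouse skin was sequenced in 8 libraries, 4 labelled NcstnΔKC and 4 labelled normal. The authors deposited raw whole-number counts and FPKM (fragments relative to gene length and to the total of the column) for 34745 Ensembl genes, per the file headers and values. The submitters' processing notes name TopHat2 2.0.9, TopHat and HTSeq, and the builds mm10 and hg38, with no role or order. Annotation release, strand setting and treatment of multiply mapped reads are not given in the sources used here. Of the gene IDs, 34344 occur in GENCODE M21 for mm10, as do all 49 members, 36 of them with the same coordinates.

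Counts were filtered with filterByExpr, scaled by TMM and fitted with edgeR 4.0.16 (R 4.3.3; robust quasi-likelihood test, two-sided), with Benjamini-Hochberg adjustment over 15684 genes and a threshold of 0.05; the procedure was tested on simulated data. CPM is counts per 1000000 of the scaled library size, and the SE of a log2 fold change was taken from the test statistic. Shares of marker lists were tested by exact two-sided permutation, adjusted over 14 lists. The 24 alternatives were other scalings and filters, DESeq2 1.42.0, limma 3.58.1 (voom, and trend on log2(FPKM + 1)), a replicate block, Xist as a covariate or split, a pair of libraries left out, and each library left out. Figures were drawn with matplotlib 3.10.9.

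Members with a call, and those of at least 5 CPM without one, were named with values, as were the 3 genes of lowest p in each other pathway list. The members and lists were chosen with earlier results of these data known. Total counts ran from 5835422 to 12893174 per library, and the common biological coefficient of variation was 0.315. Intervals and floors cover counting error only where they are said to. Counting without a stated strand cannot separate a gene from one on the other strand: among members this touches Fzd5, Sfrp2, Lef1 and Rspo3 most, with 13.1% to 17.8% of exon bases shared.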

Additional observations from a re-analysis of the deposited data

Results flagged for a closer look

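In 4 of the 64 groups of 4 libraries examined among the members, 1 library stood apart from the other 3 by Dixon's criterion at the 95% level, which chance meets in about 1 group in 20. Lef1 in normal replicate 2 was 106.8 CPM, against 7.06 to 18.8 CPM in the other normal libraries. That library also held 3.51% of its counts in hair matrix and shaft genes, against at most 0.0470% in the others; the part of these genes in the Lef1 value was not tested. Wnt4 was highest in the same library, at 39.9 CPM against 34.4 to 35.0 CPM. Frzb was highest there too, at 3.02 CPM against 1.27 to 1.52 CPM. Wif1 was lowest in normal replicate 3, at 5.08 CPM against 9.64 to 9.87 CPM. All 4 genes kept their direction and their call in edgeR's test when the library in question was left out.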

How the results depend on the processing

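All 19 called members kept their sign under all 24 alternatives. Calls were 7 higher and 12 lower among members and 22 and 23 among other pathway genes. With total counts as the scale, 6 members were lower, and 35 pathway genes were higher and 14 lower (34.4% and 13.9% of all genes). With basal keratinocyte scaling 4 members were higher and 19 lower, and 3 and 52 pathway genes (4.71% and 48.8% of all genes). Limma-trend on log2 FPKM gave 6 lower members and 14 lower pathway genes, beside 13.5% of all genes. Of the 19 called members, 14 kept their call in libraries with Xist, and Wif1, Rspo1, Nkd1, Tcf7 and Wnt6 lost it. Libraries with Xist gave 11 higher and 11 lower members, beside 27.3% and 26.4% of all genes. Those without gave 0 calls for either set in edgeR, where 3 genes of the whole table were higher and 1 lower, so this says nothing of the members; 16 of 38 members were at an unadjusted p under 0.05 (5 higher, 11 lower). Leaving out 1 library gave 6 to 9 higher and 9 to 15 lower members, and 18 to 23 and 20 to 32 pathway genes. In those fits 17.6% to 24.8% of all genes were higher and 17.4% to 26.5% lower. The replicate block gave 7 and 10 members, and 19 and 21 pathway genes, beside 18.6% and 19.5% of all genes. Same-numbered libraries correlated at -0.04 to 0.22 and not each best with its own number, so numbers were not taken as pairs. None of the genes that follow had passed except Wls and Tnks2, and the cause of each reversal was not tested. With total counts the log2 fold change was 0.18 for Wnt5a, 0.097 for Wnt9a, 0.19 for Fzd1, 0.28 for Fzd5, 0.070 for Sfrp2 and 0.25 for Ncstn. With basal scaling it was -0.18 for Wnt3, -0.54 for Fzd2, -0.21 for Fzd6, -0.31 for Fzd8, -0.096 for Wls, -0.21 for Trabd2b and -0.073 for Tnks2. On FPKM it was 0.18 for Wnt5a, 0.027 for Wnt9a, 0.17 for Fzd1, 0.34 for Fzd5 and 0.23 for Ncstn. Limma-voom gave 0.038 for Wnt5a and 0.47 for Fzd5. No filter gave 0.028 for Fzd1, 0.10 for Fzd5 and 0.063 for Ncstn. Fzd5 was 0.018 without muscle, adipocyte and hair shaft genes, 0.43 with the replicate block and 0.26 with the Xist covariate. In libraries with Xist, Wnt5a was 0.70, Fzd1 0.12, Fzd5 1.45, Sfrp1 0.058, Sfrp2 0.40 and Nkd2 0.13. In those without, Fzd2 was -0.63, Fzd9 0.84 and Rspo4 -0.18. Without NcstnΔKC 1 and normal 2, Wnt5a was 0.45, Fzd5 0.72, Fzd8 -0.0022 and Sfrp2 0.20. Leaving out 1 library turned Wnt11, Wnt5a, Wnt9a, Fzd1, Fzd5, Sfrp2 and Ncstn over a range of -0.68 to 0.19, -0.31 to 0.41, -0.32 to 0.026, -0.48 to 0.18, -0.30 to 0.90, -0.70 to 0.11 and -0.14 to 0.0055 in that order. At these depths the 10 untested members had at most 22 counts in a library.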
